A study of Mus musculus with 16 samples.

Results

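The 40 genes described here encode enzymes, activators and membrane proteins of the lysosome, and were listed by name for that function, with earlier results of these data known. Of the 40, 39 were found by symbol among the 43437 genes of the deposited table, Galns was not analysed here, and 32 reached at least 1 FPKM in at least 4 of 16 libraries and were tested. They are 7 proteases, 8 enzymes and activators of sphingolipid breakdown, 5 enzymes of glycan breakdown, 2 other hydrolases, and 10 membrane proteins and carriers. Each library held polyadenylated RNA from a pool of 10 mouse embryos at the 8-cell stage, about 80 cells. Zygotes had been injected with double-stranded RNA (dsRNA), which triggers loss of the matching transcript, against Tfap2c, against Tead4, against Tfap2c and Tead4 together (the double knockdown), or against GFP, a sequence the embryos lack, as the control. All embryos, controls included, were thus injected, freed of the zona pellucida and cultured in KSOM medium. Each of the 4 groups had 4 libraries. B1 and B2 came from a cross with C57BL/6J×DBA/2J mothers, and A1 and A2 from one with C57BL/6J×CBA/J mothers. Fathers were labelled C57BL/6J×DBA in both, with a substrain suffix that changes from sample to sample in the labels. Values of a group are given in the order A1, A2, B1 and B2. The labels do not say that the pools of a group came from separate matings or injection sessions, so the p-values stand on the spread between pools, which may be technical.

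Lysosomes are acidic compartments in which hydrolases break down proteins, glycans and lipids delivered by endocytosis and autophagy. Most of the enzymes reach them from the Golgi with mannose 6-phosphate receptors, and heavily glycosylated membrane proteins such as LAMP1 and LAMP2 line the organelle. In many cell types TFEB, a transcription factor that binds the CLEAR motif built around the E-box CACGTG, raises lysosomal genes as a group. Tfap2c encodes an AP-2 transcription factor and Tead4 a TEAD factor that works with YAP. The study compared the knockdowns at the stage before the first lineages separate.

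Values are FPKM, which scale fragments to transcript length and library size, and each change is a difference on the log2(FPKM + 1) scale, fitted in limma with a term for cross. Passing means an adjusted p (Benjamini-Hochberg, over 11422 genes) under 0.05. The absolute depth is unknown, since FPKM carry no read counts. Depth relative to the other libraries, read from the spacing of low values, ran from 0.873 to 1.12. Mean Tfap2c mRNA was 44.3% of its control level after Tfap2c dsRNA alone and 45.3% with both dsRNAs. Mean Tead4 mRNA was 15.7% of its control level after Tead4 dsRNA alone, 19.5% with both dsRNAs and 58.2% after Tfap2c dsRNA alone. All 8 markers of the 8-cell embryo were detected. Of 10 cumulus or granulosa markers only Amhr2 reached 1 FPKM in any library, of 7 macrophage or blood markers only Hba-a1, of 5 fibroblast markers only Vim, and of 5 sperm markers none. Ptprc and Tyrobp, which mark blood cells and macrophages, were listed at 0 in every library.

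The lysosomal genes differed widely in level per transcript length. In the GFP control, 10 of the 39 averaged at least 100 FPKM, 12 lay between 10 and 100, 9 between 1 and 10, and 8 below 1 FPKM. The tetraspanin gene Cd63 was the most abundant, at 2630 ± 204 FPKM (SD, n = 4), and its control libraries did not overlap those of the next gene. The cathepsin genes Ctsc (835 ± 74.7 FPKM), Ctsa (791 ± 37) and Ctsl (631 ± 174) followed and overlapped each in turn. Lamp2, at 258 ± 29.1 FPKM, lay apart from Ctsl but overlapped Gm2a (222 ± 41.2) and Ctsz (221 ± 65). Of the 38 pairs of neighbours in this order, 8 did not overlap in their control libraries. Lamp1 averaged 46.4 ± 4.33 FPKM and Psap 43.0 ± 5.27 FPKM, well below Lamp2. Together the 39 genes made up from 0.652% to 0.823% of the FPKM of a library.

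The 7 members that did not reach the threshold for testing were Tpp1 (tripeptidyl peptidase), Arsa (arylsulfatase A), Arsb (arylsulfatase B), Sgsh (sulfamidase), Naglu (alpha-N-acetylglucosaminidase), Manba (beta-mannosidase) and Lipa (acid lipase). Apart from Tpp1, none exceeded 0.712 FPKM in any library. Tpp1 was at 0.0873, 0.148, 1.20 and 2.12 FPKM in Tead4 knockdown embryos, and at no more than 0.381 FPKM in any other library. The iduronate sulfatase gene Ids passed the filter narrowly, with at least 1 FPKM in 6 libraries.

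**Figure D1:**
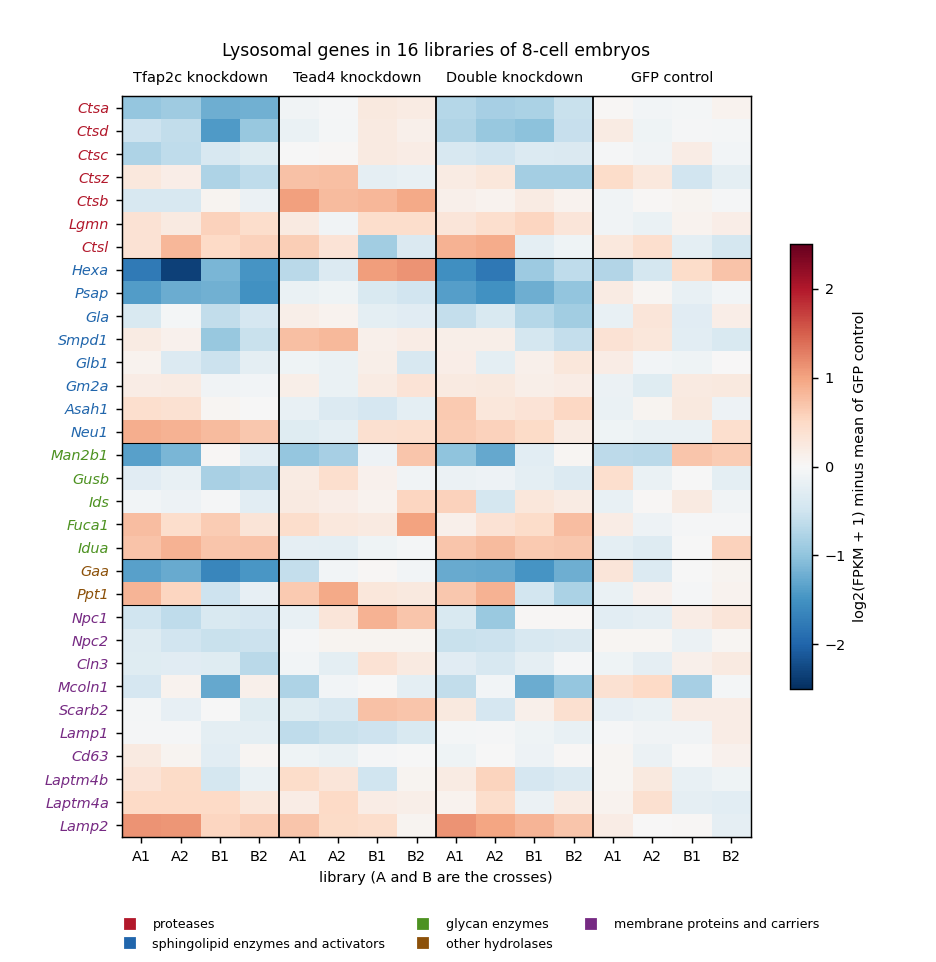
Heat map of the 32 tested lysosomal genes (rows, coloured by role) in 16 libraries (columns, by group and cross), as log2(FPKM + 1) minus the mean of the 4 GFP control libraries. Hexa, Psap and Gaa are lower in all Tfap2c and double knockdown libraries than the control mean, Lamp2 and Idua are higher, and Hexa, Man2b1 and Ctsz also separate cross B from cross A.

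Promoters of the members were read for letters of the motifs that TFEB, AP-2 and TEAD factors are known to bind. RefSeq (GRCm38.p6, the assembly also called mm10) had an entry for 28 of the 32 tested members, each running from 250 bases before to 50 after a listed start site. The windows of Cd63, Ctsl, Ids and Man2b1 lie wholly inside the RefSeq span of the gene, downstream of its 5′ end. The E-box core CACGTG, which reads the same on both strands, occurred in 7 of the 28 windows (25%), against 7.24% of all 27025 promoters and 7.91% of the 17491 of protein-coding genes. It was in 3 of the 13 windows of members lower in the Tfap2c knockdown, 1 of the 7 of members higher there and 3 of the 8 of members that did not pass. The AP-2 core GCCNNNGGC occurred in 2 of the 28 windows (7.14%), those of Psap and Ids, against 16.5% of all promoters. The TEAD core GGAATG, on either strand, occurred in 5 (17.9%), against 14.7%. The 7 members below the filter also had windows, of which 4 held the AP-2 core, 3 the E-box and 0 the TEAD core. The low AP-2 share thus holds for the tested members only. The TEAD core was in 4 of the 13 windows of members lower in the Tfap2c knockdown, namely Cln3, Gaa, Man2b1 and Npc2. It was in 0 of the 7 of members higher there and 1 of the 8 of members that did not pass. None of Cln3, Gaa, Man2b1 and Npc2 passed in the Tead4 knockdown. A match describes the letters only and is not a measured binding site. The windows printed here are those with an E-box whose gene passed the test in a single knockdown, Gaa, Ctsd, Ctsl, Gla and Lamp1, and that of Psap for its AP-2 core; they were chosen after the matches were seen. Capitals mark the motif matches, and each sequence runs 5′ to 3′ along the gene's strand.
Gaa (chr11:119267713-119268012, plus strand): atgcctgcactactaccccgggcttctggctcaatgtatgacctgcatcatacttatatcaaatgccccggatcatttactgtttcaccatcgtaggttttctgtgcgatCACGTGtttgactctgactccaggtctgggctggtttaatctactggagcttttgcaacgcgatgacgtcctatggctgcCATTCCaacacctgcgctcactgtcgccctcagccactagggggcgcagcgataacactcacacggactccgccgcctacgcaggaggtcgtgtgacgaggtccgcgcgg
Ctsd (chr7:142387778-142388077, minus strand): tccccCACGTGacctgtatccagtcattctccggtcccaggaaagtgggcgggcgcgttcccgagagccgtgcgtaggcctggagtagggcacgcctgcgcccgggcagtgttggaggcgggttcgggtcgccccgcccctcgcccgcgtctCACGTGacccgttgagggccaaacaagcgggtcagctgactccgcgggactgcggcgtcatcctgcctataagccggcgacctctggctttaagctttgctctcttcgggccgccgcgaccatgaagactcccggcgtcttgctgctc
Ctsl (chr13:64370471-64370770, minus strand): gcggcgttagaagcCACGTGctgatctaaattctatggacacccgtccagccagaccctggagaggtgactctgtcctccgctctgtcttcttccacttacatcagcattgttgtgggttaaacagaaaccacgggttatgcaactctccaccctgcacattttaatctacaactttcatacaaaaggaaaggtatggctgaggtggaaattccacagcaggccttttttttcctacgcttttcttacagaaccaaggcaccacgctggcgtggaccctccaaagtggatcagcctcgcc
Gla (chrX:134600956-134601255, minus strand): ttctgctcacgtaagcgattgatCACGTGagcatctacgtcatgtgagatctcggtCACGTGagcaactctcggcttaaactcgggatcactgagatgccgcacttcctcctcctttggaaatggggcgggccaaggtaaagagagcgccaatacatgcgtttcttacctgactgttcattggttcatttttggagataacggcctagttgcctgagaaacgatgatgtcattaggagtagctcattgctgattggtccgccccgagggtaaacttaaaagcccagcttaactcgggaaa
Lamp1 (chr8:13158911-13159210, plus strand): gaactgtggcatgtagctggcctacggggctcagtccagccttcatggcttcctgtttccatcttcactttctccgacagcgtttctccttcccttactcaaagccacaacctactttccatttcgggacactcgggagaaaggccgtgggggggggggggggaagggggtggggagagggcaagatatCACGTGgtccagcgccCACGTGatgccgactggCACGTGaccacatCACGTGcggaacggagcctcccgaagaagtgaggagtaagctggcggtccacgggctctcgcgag
Psap (chr10:60277378-60277677, plus strand): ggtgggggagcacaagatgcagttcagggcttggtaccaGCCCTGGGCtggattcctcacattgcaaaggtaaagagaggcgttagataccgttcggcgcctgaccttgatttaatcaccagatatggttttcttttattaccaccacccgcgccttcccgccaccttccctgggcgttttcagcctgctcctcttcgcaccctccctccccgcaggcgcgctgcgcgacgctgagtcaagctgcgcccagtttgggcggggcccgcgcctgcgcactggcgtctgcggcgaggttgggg
The Lamp1 window holds 4 E-boxes, starting at positions -61, -45, -28 and -15 from the start site. Ctsd holds 2, at -245 and -98, and Gla 2, at -227 and -194. Gaa holds an E-box at -140 and a TEAD core on the other strand at -60. The AP-2 core of Psap lies at -211.

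Embryos depleted of Tfap2c had lower levels of many lysosomal hydrolases, and higher levels of a smaller set that includes Lamp2. Of the 32 tested genes 14 fell (43.8%) and 7 rose (21.9%), and 11 did not pass. Among all 11422 genes 13.2% fell and 16.3% rose, so only the share that fell stood well apart from that of all genes. The median log2 change was -0.24 over the 32 genes and 0.06 over all genes. Hexa, Gaa, Psap and Ctsa fell by more than 2-fold. In 14 of the 32 genes levels did not overlap between the 4 Tfap2c knockdown and the 4 GFP control libraries, which held for 22.2% of all genes. Each of the 21 changes had the same sign in cross A and cross B, on which they were called together. In these pools of embryos, fewer cells of a type and less RNA per cell cannot be told apart.

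Among the proteases, 4 of 7 fell and 2 rose. Ctsa encodes a carboxypeptidase that also protects the sialidase NEU1 and beta-galactosidase in a complex (chromosome 2, 164832872 to 164841032 of mm10, ENSMUSG00000017760). It had 406, 429, 340 and 345.5 FPKM in the Tfap2c knockdown, against 806, 757, 765 and 837 FPKM in the GFP control. Every knockdown library lay below every control library, and the log2 change was -1.06 ± 0.0971 (SE, adjusted p = 3.28e-06), with -1.22 in cross B and -0.90 in cross A. Ctsc, the dipeptidyl peptidase cathepsin C, stood at 491, 535, 634 and 677 FPKM in the knockdown, against 817, 783, 945 and 795 FPKM in the control. Here too the groups did not overlap, with a change of -0.52 ± 0.0703 (adjusted p = 8.17e-05). Ctsd, the aspartic protease cathepsin D, had 77.6, 72.3, 41.2 and 57.2 FPKM in the knockdown, against 127, 103, 108.5 and 106 FPKM in the control. All 4 knockdown libraries were lower than any control library (-0.87 ± 0.164, adjusted p = 0.00122). Ctsz, a carboxypeptidase, averaged 189 ± 67.5 FPKM in the knockdown and 221 ± 65 FPKM in the control (-0.25, adjusted p = 0.0369), and its groups overlapped.

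Legumain, the asparaginyl endopeptidase that processes several cathepsins, moved the other way. Its gene Lgmn had 142, 129, 165 and 151 FPKM in the Tfap2c knockdown, against 104, 98.3, 118 and 124.5 FPKM in the GFP control (0.40 ± 0.0896, adjusted p = 0.00408), without overlap. Neither cross alone passed for Lgmn, at an adjusted p of up to 0.0591. Ctsl, a cysteine protease, had 791, 1089, 863 and 912 FPKM in the knockdown, against 732, 821.5, 517 and 455 FPKM in the control. The groups overlapped in cross A, where the change was 0.26, and not in cross B, where it was 0.87 (pooled 0.56, adjusted p = 0.0355). Ctsb, another cysteine protease, stood at 77.6 ± 12.7 FPKM in the knockdown and 90.0 ± 4.13 FPKM in the control and did not pass (-0.22, adjusted p = 0.0762), though it passed under 3 alternatives, with an adjusted p of 0.0322 after median-ratio rescaling.

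Sphingolipid breakdown accounted for the steepest fall. Hexa encodes the alpha subunit of beta-hexosaminidase A, which degrades GM2 ganglioside (chromosome 9, 59539540 to 59565109, ENSMUSG00000025232). Its mRNA had 6.62, 4.11, 10.7 and 8.28 FPKM in the Tfap2c knockdown, against 14.5, 18.0, 34.6 and 41.65 FPKM in the GFP control. The control values of cross B were higher than those of cross A, and the knockdown was lower within each (log2 change -1.90 in cross B and -1.46 in cross A). The pooled change was -1.68 ± 0.183 (adjusted p = 1.38e-05). Psap encodes prosaposin, the precursor of the saposins that present sphingolipids to their enzymes (chromosome 10, 60277628 to 60302600, ENSMUSG00000004207). It had 15.7, 17.5, 18.0 and 14.3 FPKM in the knockdown, against 49.5, 44.5, 37.3 and 40.6 FPKM in the control. No libraries overlapped and the knockdown mean was 38.1% of the control mean (-1.34 ± 0.131, adjusted p = 5.84e-06).

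Gla, the alpha-galactosidase that removes galactose from globotriaosylceramide, averaged 36.9 ± 6.28 FPKM in the knockdown and 48.1 ± 9.54 FPKM in the control (-0.37, adjusted p = 0.0386). Acid sphingomyelinase, encoded by Smpd1, averaged 42.0 ± 15.4 FPKM in the knockdown and 50.3 ± 13.1 FPKM in the control (-0.30, adjusted p = 0.0273). Both overlapped between groups. Neu1, the sialidase gene, rose to 13.1, 12.7, 11.98 and 10.9 FPKM in the knockdown, against 5.98, 5.71, 5.70 and 8.97 FPKM in the control. Its groups did not overlap, GFP B2 standing above the other controls (0.81 ± 0.179, adjusted p = 0.00347), and cross B alone gave an adjusted p of 0.0922. NEU1 and its protective partner cathepsin A thus changed in opposite directions at the mRNA level. Glb1 (16.5 ± 3.3 against 19.8 ± 1.9 FPKM), Asah1 (53.95 ± 8.48 against 46.6 ± 6.35 FPKM) and Gm2a (229.5 ± 25.1 against 222 ± 41.2 FPKM), which encode beta-galactosidase, acid ceramidase and the GM2 activator, did not pass, each given as knockdown against control.

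Among glycan enzymes, 2 of 5 fell and 2 rose. Idua, the alpha-L-iduronidase of dermatan and heparan sulfate breakdown, had 10.5, 11.9, 10.4 and 10.5 FPKM in the Tfap2c knockdown, against 4.99, 4.64, 5.97 and 9.53 FPKM in the GFP control. All knockdown libraries were higher (0.75 ± 0.151, adjusted p = 0.00194), but GFP B2 came near them, and the change was 0.42 in cross B (adjusted p = 0.2 in that cross alone) and 1.07 in cross A. Fuca1, an alpha-fucosidase, averaged 3.96 ± 0.699 FPKM in the knockdown and 2.38 ± 0.322 FPKM in the control (0.55, adjusted p = 0.0352). Man2b1, the lysosomal alpha-mannosidase, averaged 1.77 ± 1.24 FPKM in the knockdown and 3.54 ± 2.28 FPKM in the control (-0.68, adjusted p = 0.00637; up to 0.331 in a single cross or without a term for cross), and Gusb, beta-glucuronidase, 3.03 ± 0.879 FPKM in the knockdown and 4.69 ± 1.25 FPKM in the control (-0.50, adjusted p = 0.0137). Ids did not pass, at 0.627 ± 0.117 FPKM in the knockdown and 0.776 ± 0.215 FPKM in the control. Outside these classes, Gaa, the acid alpha-glucosidase that degrades glycogen, had 5.08, 5.48, 4.05 and 4.64 FPKM in the knockdown, against 18.1, 11.3, 14.4 and 15.2 FPKM in the control. No library of 1 group reached the other (-1.43 ± 0.158, adjusted p = 1.62e-05). Ppt1, a palmitoyl-protein thioesterase, did not pass (2.49 ± 1.48 FPKM in the knockdown, 1.91 ± 0.244 FPKM in the control).

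Membrane proteins and carriers split. Lamp2 (chromosome X, 38399647 to 38456460, ENSMUSG00000016534), which encodes a main glycoprotein of the lysosomal membrane and the receptor of chaperone-mediated autophagy, had 558, 552, 372 and 397 FPKM in the Tfap2c knockdown, against 292, 260, 261 and 220.5 FPKM in the GFP control. Every knockdown library exceeded every control library (0.84 ± 0.0977, adjusted p = 2.24e-05). Its relative Lamp1 did not pass, at 42.0 ± 3.49 FPKM in the knockdown and 46.4 ± 4.33 FPKM in the control (-0.14, adjusted p = 0.274). Laptm4a, a transmembrane protein gene, averaged 69.9 ± 4.97 FPKM in the knockdown and 51.9 ± 12 FPKM in the control (0.45, adjusted p = 0.0117), a call lost in cross A alone (0.359) and without a term for cross. NPC2 and NPC1 act together to export cholesterol. Npc2 had 141, 126, 120.1 and 121 FPKM in the knockdown, against 183, 182, 160.1 and 182 FPKM in the control, without overlap (-0.47 ± 0.074, adjusted p = 0.000279). Npc1 averaged 1.31 ± 0.178 FPKM in the knockdown and 2.27 ± 0.637 FPKM in the control (-0.48, adjusted p = 0.0337), and Cln3, the gene of juvenile Batten disease, 49.1 ± 6.08 FPKM in the knockdown and 64.6 ± 9.41 FPKM in the control (-0.39, adjusted p = 0.0298). Cd63, Mcoln1, which encodes a calcium channel of the lysosomal membrane, Scarb2, which encodes the carrier of glucocerebrosidase, and Laptm4b did not pass (adjusted p from 0.428 to 0.907).

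Of the 21 calls, 13 held when each of the 16 libraries was left out in turn, and none of the 21 changed sign. Those of Ctsl, Ctsz, Gla, Smpd1, Gusb, Fuca1, Npc1 and Cln3 were lost without at least 1 library, with adjusted p-values up to 0.125, 0.13, 0.137, 0.077, 0.0508, 0.103, 0.103 and 0.102 in that order. Without GFP A1 the number of members lower was 9, without a term for cross it was 7, and in cross B and cross A alone it was 11 and 8. Among libraries left out singly, only the absence of GFP A1 ended the call of Gusb. Gusb was also lost in cross A alone, with only the 2 groups compared and without a term for cross, at up to 0.305. The absence of each of the 8 Tfap2c knockdown and GFP control libraries ended at least 2 of the other calls. Rescaling by median ratios also ended those of Ctsl and Fuca1. The calls of Ctsa, Psap, Hexa, Gaa, Lamp2, Ctsc, Npc2 and Ctsd held under every alternative run, each cross alone included. Beside these falls, the summed level of the 8-cell markers ran from 6550 to 7770 FPKM in Tfap2c knockdown embryos and from 9460 to 9870 FPKM in the GFP control. Most of that sum was Dppa3, with a median of 7230 FPKM over all libraries, followed by Obox6, with 980 FPKM. The summed blood and macrophage markers, nearly all Hba-a1, ran from 16.9 to 40.8 FPKM in the knockdown and from 6.48 to 17.2 FPKM in the control; their part in the changes was not tested. The libraries are not stated to keep strand, and in RefSeq Idua overlaps Dgkq and Slc26a1, whose means over all libraries were 0.907 and 0.0765 FPKM, Ctsa overlaps Neurl2 (13.9 FPKM), and Ctsz overlaps Nelfcd (50.4 FPKM).

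**Figure D2:**
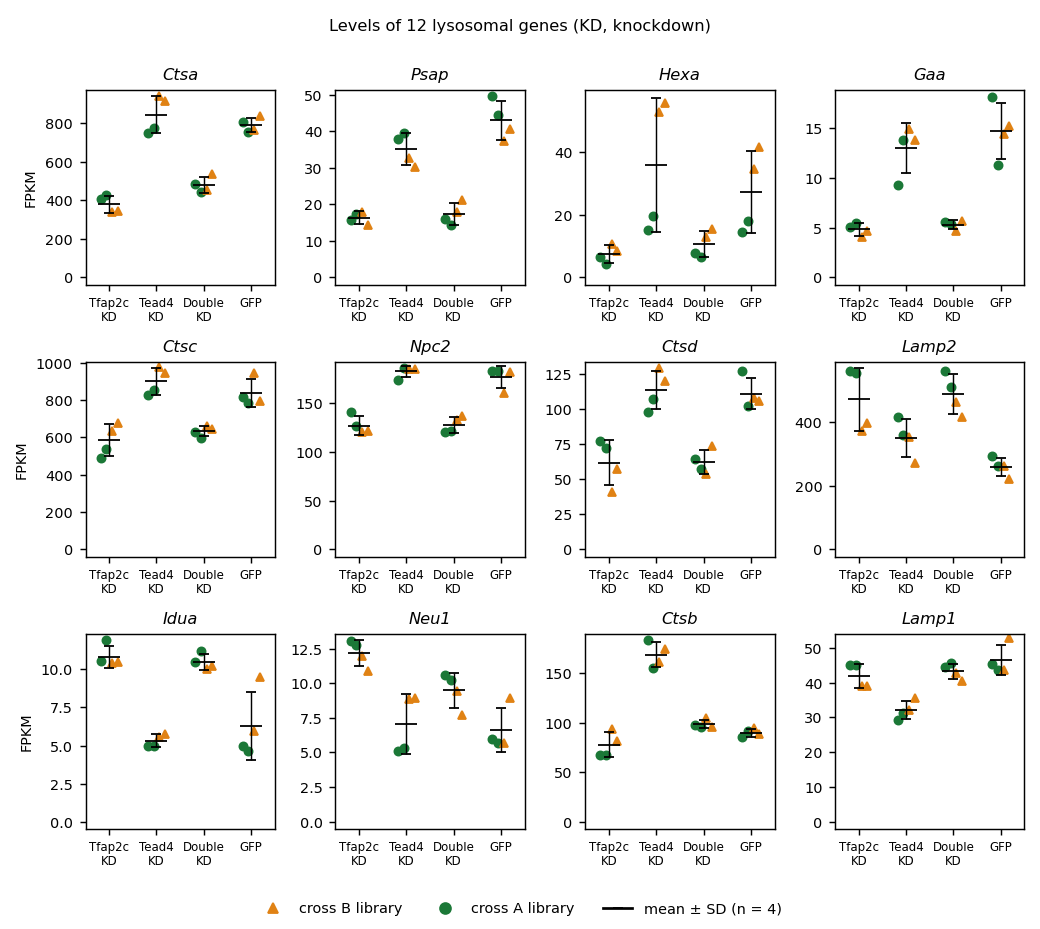
FPKM of 12 lysosomal genes in each library, grouped on the x axis, with triangles for cross B, circles for cross A and bars for mean ± SD (n = 4). Ctsa, Psap, Gaa, Ctsc, Npc2 and Ctsd show Tfap2c and double knockdown libraries below all GFP control libraries, Lamp2 and Idua show them above, and Ctsb and Lamp1 stand apart in the Tead4 knockdown.

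Few genes passed in embryos depleted of Tead4, among the lysosomal genes and among all genes. Of the 32 tested 3 rose (9.38%) and 1 fell (3.12%), against 3.35% and 2.78% of all genes, and 28 did not pass. In each cross alone 1 rose. With the crosses together, 8 were higher and 3 lower at an unadjusted p under 0.05 in limma. The median log2 change was 0.09 over the 32 genes and 0.05 over all genes. Ctsb, the gene of cathepsin B (chromosome 14, 63122462 to 63145923, ENSMUSG00000021939), had 183.5, 156, 161 and 174 FPKM in the Tead4 knockdown, against 85.1, 91.4, 94.8 and 88.6 FPKM in the GFP control. All 4 knockdown libraries lay far above the controls, with a change of 0.90 ± 0.09 (SE, adjusted p = 3.61e-05), 0.86 in cross B and 0.93 in cross A. In RefSeq Ctsb overlaps Fdft1, a sterol synthesis gene with a mean of 212 FPKM. Fdft1 itself had a log2 change of 0.28 in the Tead4 knockdown (adjusted p = 0.116).

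Lamp1 was the member that fell. It had 29.3, 31.35, 32.02 and 35.45 FPKM in the Tead4 knockdown, against 45.5, 43.75, 43.6 and 52.8 FPKM in the GFP control, without overlap (-0.52 ± 0.0907, adjusted p = 0.00307; 0.138 in cross B alone). Lamp2 rose in the same embryos, with 416, 357, 351 and 270.0 FPKM in the knockdown, against 292, 260, 261 and 220.5 FPKM in the control. Its groups overlapped, and the call (0.42 ± 0.0977, adjusted p = 0.0191) was lost without Tead4 knockdown A1, Tead4 knockdown B1, GFP A2 or GFP B2, at up to 0.0668, and in either cross alone or without a term for cross, at up to 0.299. Smpd1 had 83.5, 86.6, 53.6 and 55.8 FPKM in the knockdown, against 63.2, 59.8, 40.8 and 37.4 FPKM in the control. The crosses differed in level, and within each the knockdown was higher by about the same amount (0.475 in cross B and 0.461 in cross A; adjusted p = 0.00756). Neither cross alone passed for Smpd1, nor did the fit without a term for cross, with an adjusted p of up to 0.48. Hexa (35.7 ± 21.3 against 27.2 ± 13 FPKM), Psap (35.1 ± 4.34 against 43.0 ± 5.27 FPKM), Ctsd (114 ± 13.7 against 111 ± 11 FPKM) and Ctsl (633 ± 274 against 631 ± 174 FPKM) did not pass, each given as knockdown against control.

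**Figure D3:**
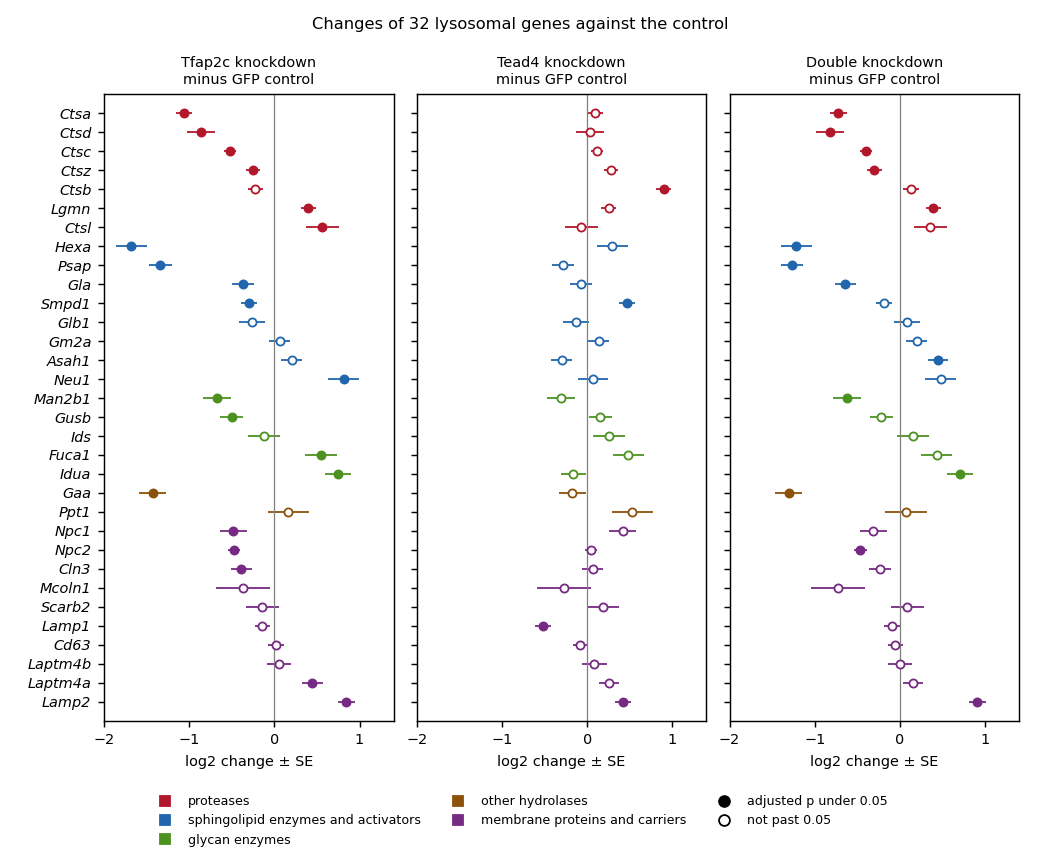
Log2 change ± SE of the 32 tested genes (rows, coloured by role) in each knockdown minus the GFP control; filled points passed at an adjusted p under 0.05. The Tfap2c knockdown has 14 genes lower and 7 higher, the Tead4 knockdown 1 and 3, and the double knockdown 10 and 4.

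With both dsRNAs, 10 of the 32 genes fell (31.2%) and 4 rose (12.5%), against 11.3% and 13.9% of all genes. The median was -0.07 over the 32 genes and 0.05 over all genes. The GFP control libraries are shared with the single knockdowns, so the comparisons are not independent. Psap had 15.9, 14.3, 17.9 and 21.2 FPKM in the double knockdown, Gaa 5.54, 5.39, 4.62 and 5.64 FPKM, and Ctsa 483, 444, 454 and 540 FPKM. None of these overlapped the control values, and the changes were -1.27, -1.31 and -0.72 (adjusted p = 1.32e-05, 4.38e-05 and 9.88e-05). Hexa, with 7.87, 6.52, 12.8 and 15.5 FPKM, overlapped the control when the crosses were pooled but was lower within each (-1.22, adjusted p = 0.000241; 0.074 without a term for cross). Npc2 (128 ± 8.29 FPKM), Ctsc (633 ± 27.5), Ctsd (62.5 ± 8.73), Gla (30.3 ± 4.46), Man2b1 (1.84 ± 1.19) and Ctsz (186 ± 78.9) also fell. Ctsz was lost without GFP B2 or double knockdown B1, at an adjusted p of up to 0.0569. In a single cross the calls of Npc2 (0.0664 in B), Gla (0.0888 in A) and Man2b1 (up to 0.398) were also lost.

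Lamp2 rose to 559, 510, 461 and 415 FPKM in double knockdown embryos, against the GFP control's 292, 260, 261 and 220.5 FPKM (0.91 ± 0.0977, adjusted p = 1.65e-05). Idua averaged 10.5 ± 0.507 FPKM in double knockdown embryos and 6.28 ± 2.24 FPKM in the control (0.70, adjusted p = 0.00333), and Lgmn 146 ± 12.4 FPKM in double knockdown embryos and 111 ± 12.2 FPKM in the control (0.39, adjusted p = 0.00514); in cross B alone these stood at an adjusted p of 0.291 and 0.144. Asah1, the acid ceramidase gene that did not pass in either single knockdown, had 73.5, 56.7, 58.9 and 66.5 FPKM in double knockdown embryos, against 41.2, 48.4, 54.85 and 42.1 FPKM in the control. Its groups did not overlap (0.45 ± 0.121, adjusted p = 0.0138; 0.0519 without GFP A1, and up to 0.16 in either cross alone). Asah1 overlaps Frg1 in RefSeq, a gene with a mean of 73.1 FPKM. Ctsb had 97.9, 95.6, 104 and 95.7 FPKM in double knockdown embryos and did not pass (0.13, adjusted p = 0.327). Lamp1 averaged 43.3 ± 2.2 FPKM in double knockdown embryos and did not pass (-0.09, adjusted p = 0.488). Ctsl averaged 841 ± 344 FPKM there and did not pass (0.36, adjusted p = 0.185), though it passed under 1 alternative, at 0.0305. Summed 8-cell markers, mostly Dppa3, ran from 7070 to 7930 FPKM in double knockdown embryos and blood and macrophage markers from 25.4 to 50.6 FPKM, and their part was not tested.

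Set against the Tead4 knockdown, the double knockdown differs by the Tfap2c dsRNA. Of the 32 genes 12 were lower (37.5%) and 4 higher (12.5%), against 12.9% and 10.9% of all genes, and all 16 calls held when each library was left out in turn. Ctsb was lower, at 98.4 ± 4.13 FPKM in double knockdown embryos and 169 ± 12.6 FPKM in the Tead4 knockdown (-0.77, adjusted p = 3.16e-05), without overlap. Lamp1 was higher, at 43.3 ± 2.2 FPKM in double knockdown embryos and 32.04 ± 2.55 FPKM in the Tead4 knockdown (0.42, adjusted p = 0.00341). Both genes that had moved most clearly with Tead4 dsRNA alone thus lay at other levels once Tfap2c dsRNA was present. Ctsa (-0.81), Hexa (-1.51), Psap (-0.98), Ctsc (-0.51), Gaa (-1.13), Smpd1 (-0.65), Ctsz (-0.58), Npc2 (-0.51), Ctsd (-0.86), Npc1 (-0.73) and Gla (-0.57) were also lower, and Asah1 (0.75), Idua (0.86) and Lamp2 (0.49) higher, all as log2 differences with adjusted p from 3.6e-05 to 0.00449. In cross B alone Lamp1 (0.18), Lamp2 (0.0627) and Idua (0.0585) did not pass, and Gaa, Gla, Npc1, Smpd1 and Ctsz each missed in a single cross or without a term for cross (up to 0.299).

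Set against the Tfap2c knockdown, the double knockdown differs by the Tead4 dsRNA, and 0 of the 32 genes passed in limma, with 4 higher and 2 lower at an unadjusted p under 0.05. Among all genes 0.035% were higher and 0.105% lower. The lowest p was that of Ctsb, whose 98.4 ± 4.13 FPKM in double knockdown embryos and 77.6 ± 12.7 FPKM in the Tfap2c knockdown did not overlap (0.35 ± 0.09, adjusted p = 0.161). Ctsa stood at 480.2 ± 43 FPKM in double knockdown embryos and 380.2 ± 44.3 FPKM in the Tfap2c knockdown (0.34, adjusted p = 0.231), also without overlap. The test of the non-additive part asks whether the double knockdown differs from the sum of the single changes, and 0 of 32 genes passed in limma, 9 at an unadjusted p under 0.05. Among all 11422 genes 86 passed (0.753%). Lamp1 (0.56 ± 0.128, adjusted p = 0.0624) and Ctsb (-0.55 ± 0.127, adjusted p = 0.0644) came nearest to passing.

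The crosses differed in many of these genes. With group in the fit, 9 of the 32 were lower in cross B than in cross A (28.1%) and 6 higher (18.8%), against 16.3% and 17.2% of all genes. Cross here holds both the mothers' strain and anything handled per cross, and these cannot be told apart. Ctsz had the clearest difference, with from 118 to 189 FPKM over the 8 libraries of cross B and from 239 to 363 FPKM over the 8 of cross A. The crosses did not overlap (-0.92 ± 0.059, adjusted p = 2.66e-07). Man2b1 averaged 3.82 ± 1.45 FPKM in cross B and 1.09 ± 0.371 FPKM in cross A, again without overlap (1.17 ± 0.116, adjusted p = 7.69e-06). Hexa averaged 29.0 ± 19.5 FPKM in cross B and 11.55 ± 5.93 FPKM in cross A (1.10, adjusted p = 3.17e-05), with overlap across groups.

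Lower in cross B were also Smpd1 (39.2 ± 10.6 against 64.0 ± 13.4 FPKM in cross A), Ctsl (581 ± 201 against 928 ± 171 FPKM), Laptm4b (8.03 ± 1.25 against 12.6 ± 1.55 FPKM) and Lamp2 (343.5 ± 84.6 against 438 ± 124 FPKM), as well as Ppt1, Gusb, Gla and Laptm4a. Npc1, Ctsc, Lgmn and Scarb2 were higher in cross B, by 0.52, 0.19, 0.23 and 0.44 on the log2 scale. Ctsc was lost after quantile normalization, at 0.108, and Gla and Laptm4a were each lost without several single libraries, at an adjusted p of up to 0.0622 and 0.0662. The sum of all members other than Cd63 averaged 3673 ± 367 FPKM in cross B and 4100 ± 283 FPKM in cross A (n = 8 each), and mitochondrially encoded genes took from 7.06% to 9.93% of the FPKM in cross B and from 8.25% to 12.1% in cross A. An interaction of knockdown and cross passed for 0 of the 32 genes and 0 of 11422 genes in limma. At an unadjusted p under 0.05 it was found for 8 members and 1888 genes in the Tfap2c knockdown, 1 and 797 in the Tead4 knockdown, and 5 and 1284 in the double knockdown. The GM2 activator gene Gm2a came nearest: its change in the Tfap2c knockdown was -0.30 in cross B and 0.43 in cross A (interaction adjusted p = 0.0656).

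**Figure D4:**
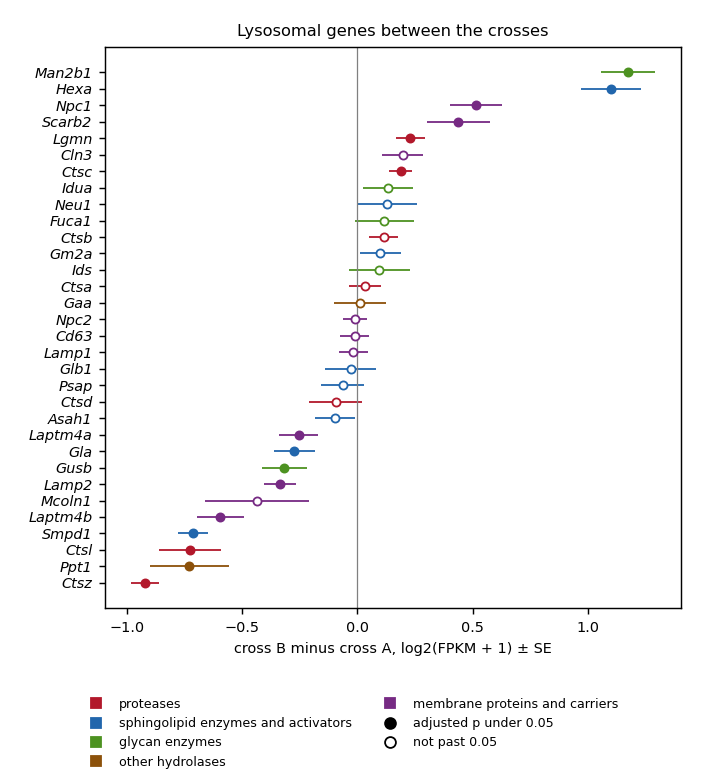
Difference between cross B and cross A in log2(FPKM + 1) ± SE for the 32 tested genes, ordered by size and coloured by role; filled points passed at an adjusted p under 0.05. Man2b1 and Hexa lie at the top, above 1, and Ctsz at the bottom, at -0.92.

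Genes of the lysosome outside the members were read from lists set by function, with earlier results of these data known. Among all 11422 genes, 13.2% fell and 16.3% rose in the Tfap2c knockdown. In the Tead4 knockdown 2.78% fell and 3.35% rose, and in the double knockdown 11.3% and 13.9%. The medians over all genes were 0.06, 0.05 and 0.05 in that order. In the Tfap2c knockdown the lists of enzyme sorting and of other membrane proteins lay near these shares. Of 14 tested hydrolase genes in the first list, 8 fell in the Tfap2c knockdown (median -0.72), 1 rose in the Tead4 knockdown (median 0.17), and 6 fell in the double knockdown (median -0.48). Glmp, a lysosomal membrane glycoprotein gene that this list holds, had 92.4, 103, 90.2 and 91.0 FPKM in Tfap2c knockdown embryos and 114, 101, 100.2 and 77.0 FPKM in double knockdown embryos, against 233, 198, 199 and 222 FPKM in the GFP control. Neither knockdown overlapped the control (log2 changes -1.17 and -1.12, adjusted p = 1e-06 and 2.45e-06). Ctsh, the gene of cathepsin H, averaged 22.5 ± 6.16 FPKM in the Tfap2c knockdown, 30.7 ± 5.53 FPKM in double knockdown embryos and 56.2 ± 8.91 FPKM in the control. Prcp, a carboxypeptidase gene, rose in the Tead4 knockdown, to 9.41 ± 1.03 FPKM against 6.02 ± 1.66 FPKM in the control (0.59, adjusted p = 0.0188), and Pla2g15, the lysosomal phospholipase A2 gene, fell in the double knockdown, to 6.28 ± 1.38 FPKM against 15.2 ± 3.79 FPKM in the control (-1.14, adjusted p = 4.62e-05).

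Of 17 tested subunits of the V-ATPase, the proton pump that acidifies the lysosome, 4 fell and 1 rose in the Tfap2c knockdown (median -0.16). In limma 0 of the 17 passed in the Tead4 knockdown (3 at an unadjusted p under 0.05, median 0.14) and 0 in the double knockdown (5 at an unadjusted p under 0.05, median -0.1). Atp6v0b had 212, 196, 116 and 119 FPKM in the Tfap2c knockdown, against 261, 217, 256.5 and 284.5 FPKM in the GFP control, with the lower values in cross B (-0.71, adjusted p = 0.00504). Atp6v1g1 averaged 66.0 ± 5.77 FPKM in the knockdown and 90.2 ± 23 FPKM in the control (-0.41, adjusted p = 0.011), and Tcirg1, the gene of a membrane subunit, rose to 21.7 ± 2.96 FPKM against 15.1 ± 3.29 FPKM in the control (0.51, adjusted p = 0.0314). Of 20 tested genes of enzyme sorting, 3 rose and 3 fell in the Tfap2c knockdown, 1 rose and 1 fell in the Tead4 knockdown, and 3 rose and 1 fell in the double knockdown (medians -0.0011, 0.08 and 0.02). Gga2, an adaptor for mannose 6-phosphate receptors, fell to 4.25 ± 1.27 FPKM in Tfap2c knockdown embryos and 4.68 ± 2 FPKM in double knockdown embryos, against 13.05 ± 2.62 FPKM in the control (-1.44 and -1.34, adjusted p = 3.88e-05 and 8.59e-05). Ap3s1, a subunit of the AP-3 adaptor, passed in all knockdowns, averaging 16.1 ± 2.83, 12.7 ± 2.44 and 13.6 ± 3.31 FPKM in the Tfap2c, Tead4 and double knockdowns, against 7.69 ± 0.169 FPKM in the control. Vps26a of the retromer averaged 146 ± 17.5 FPKM in Tfap2c knockdown embryos and 105 ± 18.5 FPKM in the control (0.48, adjusted p = 0.00615). In double knockdown embryos Vps26a averaged 146 ± 7.49 FPKM (0.48, adjusted p = 0.00626). Ap3m1, another AP-3 subunit, fell in the Tfap2c knockdown, to 30.05 ± 5.57 FPKM against 41.8 ± 5.14 FPKM in the control (-0.47, adjusted p = 0.0256). Gga3, a relative of Gga2, fell in the Tead4 knockdown, to 0.612 ± 0.162 FPKM against 1.24 ± 0.305 FPKM in the control (-0.47, adjusted p = 0.0464). Calls of single genes in these other lists were not checked with libraries left out or in each cross alone.

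Among 15 tested genes of other lysosomal membrane proteins and transporters, 2 fell and 2 rose in the Tfap2c knockdown and the same numbers in the double knockdown (medians -0.05 and 0.0041). Spns1, a lysophospholipid transporter gene, had 61.75, 57.9, 62.9 and 60.6 FPKM in the Tfap2c knockdown, against 153, 119.5, 135 and 156.5 FPKM in the GFP control, without overlap (-1.19 ± 0.1, adjusted p = 1.46e-06). Tmem192 averaged 39.6 ± 7.74 FPKM in Tfap2c knockdown embryos and 63.5 ± 14.2 FPKM in the control (-0.66, adjusted p = 0.00207). In double knockdown embryos Spns1 averaged 68.0 ± 7.66 FPKM and Tmem192 46.35 ± 17 FPKM (-1.04 and -0.49, adjusted p = 7.9e-06 and 0.0147). Ostm1, whose product is the partner of a lysosomal chloride transporter, rose to 21.4 ± 3.01 FPKM in Tfap2c knockdown embryos and 24.0 ± 2.2 FPKM in double knockdown embryos, against 14.0 ± 0.363 FPKM in the control (adjusted p = 0.00136 and 0.000237), and Litaf, the gene of an endosomal membrane protein, rose by 0.46 and 0.57 on the log2 scale in these groups. In the Tead4 knockdown limma called 0 of these 15 genes, with 2 at an unadjusted p under 0.05 (median 0.09).

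Regulators of the lysosome were read as a list of mTORC1 and TFEB genes, of which 21 were tested. In the Tfap2c knockdown 1 rose and 1 fell, in the Tead4 knockdown 1 fell, and in the double knockdown 2 rose and 2 fell (medians -0.11, 0.12 and -0.08). Tfeb (chromosome 17, 47737037 to 47792416, ENSMUSG00000023990), the gene of the transcription factor that binds the CLEAR motif, had 0, 0.0776, 1.64 and 0.784 FPKM in Tfap2c knockdown embryos and 0.416, 0, 1.85 and 1.47 FPKM in double knockdown embryos, against 6.47, 6.28, 11.4 and 5.26 FPKM in the GFP control. Neither group overlapped the control, with changes of -2.43 ± 0.258 (adjusted p = 1.13e-05) and -2.18 ± 0.258 (adjusted p = 3.54e-05) on the log2(FPKM + 1) scale, which understates falls to such low levels. In the Tead4 knockdown Tfeb stood at 8.92, 9.39, 12.8 and 8.76 FPKM and did not pass (0.43, adjusted p = 0.382). Its relatives Tfe3 and Mitf stood at from 1.41 to 3.80 FPKM and at no more than 0.141 FPKM in any library. Rragd, which encodes a Rag GTPase that recruits mTORC1 and is a known TFEB target, fell in the Tead4 knockdown. It had 2.29, 3.32, 3.86 and 5.16 FPKM in the Tead4 knockdown, against 8.98, 7.35, 18.7 and 23.0 FPKM in the control (-1.63 ± 0.308, adjusted p = 0.00527), without overlap. In the Tfap2c knockdown Rragd averaged 11.29 ± 3.125 FPKM, against 14.5 ± 7.56 FPKM in the control, and did not pass (-0.23 ± 0.308, adjusted p = 0.614). The double knockdown averaged 6.38 ± 4.78 FPKM for Rragd (-1.13, adjusted p = 0.0145), and overlapped the control, with 13.3 FPKM in double knockdown B2. Rragc, its close relative, averaged 4.98 ± 0.741 FPKM in Tfap2c knockdown embryos and 3.40 ± 0.777 FPKM in the control (0.45, adjusted p = 0.0283). In the double knockdown Fnip2 rose, to 1.07 ± 0.386 FPKM against 0.430 ± 0.194 FPKM in the control (adjusted p = 0.0331), as did Tsc1, to 3.49 ± 1.04 FPKM against 1.75 ± 0.478 FPKM in the control (adjusted p = 0.0369).

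**Figure D5:**
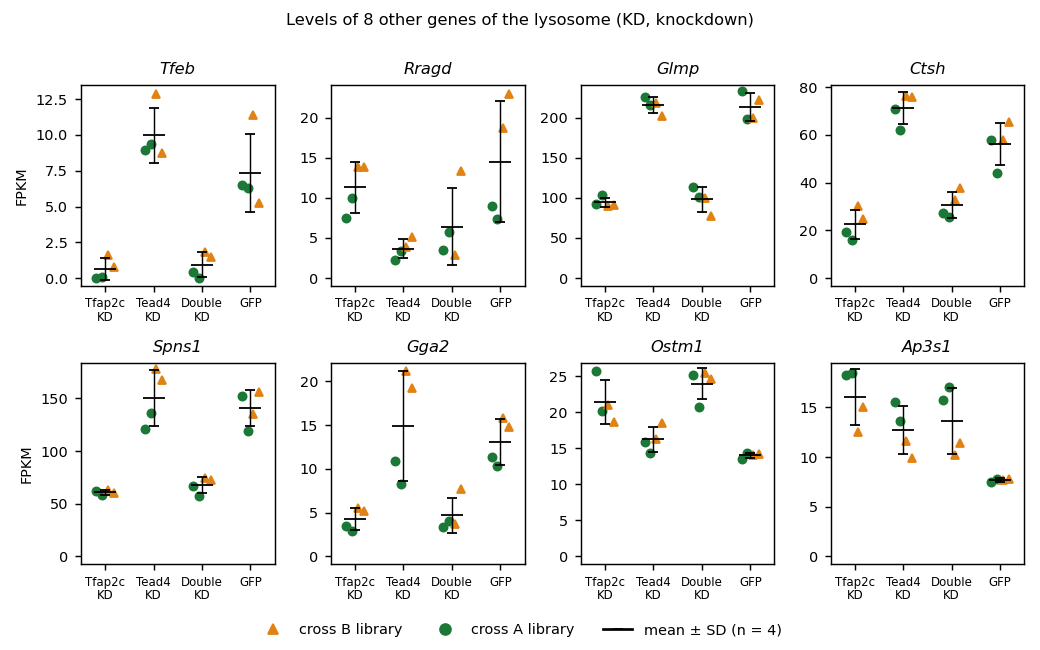
FPKM of 8 other lysosomal genes in each library, grouped on the x axis, with triangles for cross B, circles for cross A and bars for mean ± SD (n = 4). Tfeb, Glmp, Ctsh, Spns1 and Gga2 are low in all Tfap2c and double knockdown libraries, Ostm1 is high there, and Rragd is lowest in the Tead4 knockdown on average.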

How the data were processed

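RNA from 16 pools of 10 embryos was measured by RNA-seq. Per the labels' protocols, SuperScript II was used on polyadenylated RNA, Smart-seq2 for amplification and TruePrep V2 for the libraries. The submitters' processing notes name CASAVA, Trim Galore, STAR, Cufflinks and mm10, without versions. The authors deposited 1 table of FPKM values over 43496 lines, of which 59 repeats of a gene were removed. FPKM are relative to the library, so a high share taken by some genes lowers the others. The values were not rescaled, summed from 799206 to 874381 per library, and give no absolute depth. The only computed unit is log2(FPKM + 1), from the deposited FPKM.

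The fit, by limma 3.58.1 under R 4.3.3 (lmFit, contrasts.fit, eBayes with a variance trend), took the 11422 genes that reached 1 FPKM in 4 or more libraries and all 16 libraries, with terms for group and cross. Tests were two-sided, p-values were adjusted by Benjamini-Hochberg over all genes tested, and the procedure was tested on simulated data. Groups came from the labels. The members and all gene lists were chosen with earlier results of these data known. Named with values were, per comparison and direction, the 4 members with the lowest adjusted p (6 for the Tfap2c knockdown against control). Of each other list the 2 genes per direction with the lowest adjusted p were named. Lamp1, Lamp2, Psap, Ctsd, Ctsb, Ctsl and Hexa were named in each knockdown against control. In the other comparisons these were run under the alternatives, but not all are given. Further members are given to account for each. Replicate numbers were checked for pairing over 24 pairs of libraries with the same label, and were not taken as pairs. Deviations from the mean of a group within a cross correlated from -0.166 to 0.176. With 2 libraries per group and cross, both numbers of a cross give the same value, so this check is weak. Deviations from the group means over both crosses, which hold the cross difference, correlated from 0.0322 to 0.308, with 23 of 24 over 0.1. Alternatives changed the pseudocount, level filter, scaling, variance trend, cross term, libraries and crosses. Promoter sequences and gene positions are RefSeq's for GRCm38.p6. The result of 1 gene of the list of other hydrolases is not reported here.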

Additional observations from a re-analysis of the deposited data

Results flagged for a closer look

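Of 128 groups of 4 libraries (32 genes in 4 groups), 7 held a library whose gap to its nearest neighbour as a share of the group's range exceeded Dixon's critical value for 4 samples. Chance alone flags about 1 group in 20. Cln3 stood at 39.95 FPKM in Tfap2c knockdown B2, below 51.6 to 52.6 FPKM in the other 3 libraries of that group. Laptm4a stood at 62.4 FPKM in the same library, below 72.2 to 72.4 FPKM. In Tead4 knockdown A2, Laptm4a was at 72.6 FPKM, above 56.1 to 58.4 FPKM in the others. Npc2 was low in Tead4 knockdown A1, at 173 FPKM against 185 to 186 FPKM, and in GFP control B1, at 160.1 FPKM against 182 to 183 FPKM. Idua stood at 11.9 FPKM in Tfap2c knockdown A2, against 10.4 to 10.5 FPKM in the others. Neu1 stood at 8.97 FPKM in GFP control B2, against 5.70 to 5.98 FPKM. No cause was tested for any of these.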

How the results depend on the processing

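Of 1651 values of 66 named results under the alternatives, 48 lost their call (17 results), 5 gained one (3 results) and 22 reversed in sign (10 results); none of the reversed results had passed. Without a term for cross the Tfap2c knockdown had 4 members higher, 7 lower and 2165 genes called, the Tead4 knockdown 1 higher and 279 called, the double knockdown 1786 called against the control, 1644 against the Tead4 knockdown and 3 against the Tfap2c knockdown. In cross B alone these counts were 3 members higher and 2217 called, 1 higher, 0 lower and 81 called, 1 higher and 1228 called, and, against the Tead4 knockdown, 1 higher and 1534 called; in cross A alone they were 4 higher, 8 lower and 1776 called, 1 higher and 250 called, 1817 called, 1405 against the Tead4 knockdown and 2 against the Tfap2c knockdown. These alternatives use fewer libraries or leave the cross difference in the spread. Fitted on the 2 groups alone, 9 members were lower in the Tfap2c knockdown. The double against the Tfap2c knockdown, 16 genes in all, gave 4 with a pseudocount of 0.1, 4 with no filter, 10 with no variance trend, 2 with only these groups and 8 with the replicate block; the cause was not tested.

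The replicate block in place of cross gave 7 members higher and 13 lower in the Tfap2c knockdown and ended the call of Npc1 there; it changed no call among the 66 named results. In cross A alone the sign turned for Lamp1 in the Tfap2c (0.0132) and double knockdown (0.012), for Ctsd (-0.15) and Ctsl (0.14) in the Tead4 knockdown, and for the double against the Tfap2c knockdown in Lamp1 (-0.0012), Lamp2 (-0.0566), Psap (-0.13), Ctsd (-0.29) and Ctsl (0.29). Ctsd in the Tead4 knockdown also turned with median-ratio rescaling (-0.0348) and quantile normalization (-0.00451).

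Leaving out 1 library at a time gave 9 to 14 members lower and 5 to 7 higher in the Tfap2c knockdown, 2 to 4 higher in the Tead4 knockdown with 407 to 753 genes called (446 without Tead4 knockdown B1, 407 without GFP B2), and 1 to 22 genes between the double and Tfap2c knockdowns (1 without double knockdown A2 or Tfap2c knockdown A2). The change of Ctsd in the Tead4 knockdown ran from -0.0526 to 0.124 and of Ctsl from -0.18 to 0.0925; the double minus Tfap2c difference ran from -0.051 to 0.168 for Psap and from -0.14 to 0.15 for Ctsd, and Lamp1 between the crosses from -0.0515 to 0.000933. Values near 1 FPKM, such as those of Ids, Npc1, Man2b1, Gga3 and Fnip2, rest on few fragments, and changes of such genes are understated by the pseudocount of 1.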
